A study of Mus musculus with 4 samples.

Results

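Metallothioneins and zinc transporters were examined across the cells of transplanted mouse hearts, as 4 genes out of the 30905 genes in the deposited matrix. The 4 genes were Mt1, Mt2, Slc39a14 and Slc30a1, taken by their symbols. They were selected on their measured levels across cell classes and libraries in these same cells, so those levels are given as a description without a test. The study grafted hearts of Balb/C mice (allogeneic) or of C57BL/6J mice (syngeneic) into the abdomen of C57BL/6J recipients and collected them on day 5. The labels list 2 allogeneic and 2 syngeneic grafts, and single cells were profiled by droplet RNA sequencing with the 10x 3' kit. The graft holds donor heart cells together with blood cells of the recipient. The deposited matrix merges all cells, and the suffix of the barcodes divides them into 4 libraries. None of the sources used here pairs a suffix with a graft, so allogeneic and syngeneic grafts were not compared, the cells count as 1 pooled sample, and the libraries are named 1 to 4 after the suffix.

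Metallothioneins are small cysteine-rich proteins that bind zinc and copper in the cytosol. Their transcription rises with free zinc through the zinc-sensing transcription factor MTF-1, encoded by Mtf1, which binds metal response elements in their promoters, and also with glucocorticoids, cytokines and oxidants. Slc39a14 encodes ZIP14, a transporter of the ZIP family that brings zinc, manganese and iron into the cytosol and that is induced by interleukin 6 in the liver. Slc30a1 encodes ZnT1, the transporter that exports zinc across the plasma membrane and is itself a target of MTF-1.

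On the mouse assembly GRCm38 (mm10), Mt2 (ENSMUSG00000031762) lies at chr8:94172664-94173568 and Mt1 (ENSMUSG00000031765) at chr8:94179082-94180327, both on the plus strand and 5513 bases apart. Mt3 lies upstream of Mt2 on the same strand, with 18517 bases between them. Slc39a14 (ENSMUSG00000022094) lies at chr14:70303469-70351425 on the minus strand and Slc30a1 (ENSMUSG00000037434) at chr1:191906767-191913247 on the plus strand. Because Mt1 and Mt2 moved together in these cells, their promoters are shown with that of Slc30a1, the other member with a sequence in the RefSeq promoter table (GRCm38.p6), in which 3 of the 4 genes matched. Each line gives the 250 bases upstream of the RefSeq start, 5' to 3' on the plus strand. Capitals mark matches to TGCACNC or TGCGCNC, the core letters of the metal response element, on either strand.
Mt1 (chr8:94178839-94179088): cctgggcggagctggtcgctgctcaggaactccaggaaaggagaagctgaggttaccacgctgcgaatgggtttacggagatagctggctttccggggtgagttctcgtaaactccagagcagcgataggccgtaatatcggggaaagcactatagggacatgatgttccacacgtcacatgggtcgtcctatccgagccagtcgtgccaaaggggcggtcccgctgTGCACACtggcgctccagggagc
Mt2 (chr8:94172368-94172617): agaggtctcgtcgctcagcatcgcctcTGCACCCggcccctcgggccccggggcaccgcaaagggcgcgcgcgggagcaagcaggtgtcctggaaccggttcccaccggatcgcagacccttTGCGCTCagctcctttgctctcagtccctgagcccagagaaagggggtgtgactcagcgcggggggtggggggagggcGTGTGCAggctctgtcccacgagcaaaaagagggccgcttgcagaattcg
Slc30a1 (chr1:191906531-191906780): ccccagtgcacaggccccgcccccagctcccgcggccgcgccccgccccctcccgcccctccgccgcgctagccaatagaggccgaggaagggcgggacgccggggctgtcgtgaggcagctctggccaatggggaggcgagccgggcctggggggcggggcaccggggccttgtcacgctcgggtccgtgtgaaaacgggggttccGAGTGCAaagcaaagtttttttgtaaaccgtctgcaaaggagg
Over the whole 300-base entries, which also hold 50 bases after the start, Mt1 had 3 matches, Mt2 had 4 and Slc30a1 had 2. The 2 further matches of Mt1 lay just past its printed bases, as TGCACTC beginning at base 3 and TGCGCTC at base 21 after the start. The other entries with matches past the start were Mt2, with TGCGCAC on the minus strand, and Slc30a1, with TGCGCTC on the minus strand. Of 32851 promoters in the table, 25.7% held at least 1 match, 7.11% at least 2, 1.97% at least 3 and 0.517% at least 4. GENCODE lists further Mt1 transcripts that start at 94179211 and 94179241, so the RefSeq start is not the only annotated start and the windows do not hold every promoter base of these genes. A match is a run of letters and was not tested for binding.

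After filtering, 42395 of 53824 cells were kept, with 9358 to 12496 cells per library and a median of 4583 to 11920 non-mitochondrial unique molecular identifiers (UMIs) per cell. Levels are given as CPM, the UMIs of a gene scaled to a common total of non-mitochondrial UMIs of the same cells. Their 95% intervals are exact Poisson intervals that cover counting error only, and the 3' UMI counts were not divided by gene length, so values of different genes are not ranked against each other. Clustering without the zinc genes gave 28 clusters, of which 23 were named from markers and merged into 11 classes written as "-like". The remaining 5166 cells stayed unnamed. Each class was checked against its markers. Cdh5 stood at 1233 CPM in endothelial-like cells against a median of 72.9 CPM in the other classes, and Dcn at 11819.5 CPM in fibroblast-like cells against 123 CPM. In 13 of the 28 clusters at least 90% of cells came from 1 library, and 308 barcodes occurred in more than 1 library. Library 2 stood apart. Transcripts of granulocytes, S100a8 and S100a9, reached 1211 CPM in its endothelial-like cells, against 34.7, 24.8 and 82.6 CPM in libraries 1, 3 and 4. Its sum of 9 interferon-response genes was the lowest of all libraries, at 226 CPM against 770 to 7841 CPM.

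Mt1 and Mt2 were highest in fibroblast-like cells, and Mt1 was lowest in B-like and Mt2 in T/NK-like cells. Mt1 stood at 5371 CPM (95% interval 5357 to 5385) in fibroblast-like cells, followed by pericyte-like (2835), smooth muscle-like (2451), Schwann-like (2286), cardiomyocyte-like (1833), macrophage-like (791), granulocyte-like (598), endothelial-like (506), erythroid-like (225), T/NK-like (175) and B-like cells (152). Among neighbours in that order, the intervals overlapped only between T/NK-like and B-like cells, at 170 to 181 and 133 to 174 CPM. The spread between libraries was far wider than these intervals. Mt2 ran from 2337 CPM (2328 to 2346) in fibroblast-like and 1054 CPM in pericyte-like cells down to 44.0 CPM (41.4 to 46.6) in T/NK-like cells. Its order differed from that of Mt1 in several places. Schwann-like cells (856) lay above smooth muscle-like cells (460, interval 444 to 475). Endothelial-like (237) and granulocyte-like cells (222) lay above macrophage-like cells (120) in the pooled levels. Within libraries 1 to 3, however, macrophage-like cells (81.9, 673 and 76.7 CPM) lay above granulocyte-like cells (41.1, 243 and 22.6 CPM). Macrophage-like cells also lay above endothelial-like cells there (53.3, 649 and 26.4 CPM), but below them in library 4 (38.3 against 170.1 CPM). B-like cells (70.1) lay above erythroid-like cells (51.8), with overlapping intervals. Of the Schwann-like UMIs, 6311 of 10365 of Mt1 and 2660 of 3879 of Mt2 came from 31 cells of library 2. In libraries 1 and 3, with 263 and 620 Schwann-like cells, Mt1 stood at 1557 and 778 CPM. Mt2 stood there at 507 and 220 CPM, against 306 and 238 CPM in smooth muscle-like cells, with overlapping intervals in library 3. The fibroblast transcript Dcn stood at 3026 and 2905 CPM in these Schwann-like cells. Their Mt1 UMIs per Dcn UMI were 0.514 and 0.268, against 0.241 and 0.198 over all cells of these libraries. The part of fibroblast RNA in the Schwann-like levels was not tested.

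Slc39a14 was also highest in fibroblast-like cells, at 118 CPM (116 to 120). Smooth muscle-like (54.7), endothelial-like (53.0), pericyte-like (45.6) and Schwann-like cells (43.0) formed a second tier. The intervals of the first 2 of these overlapped, as did those of the last 2. Macrophage-like cells had 27.2 CPM, and granulocyte-like (15.9), T/NK-like (15.7), erythroid-like (14.0), cardiomyocyte-like (11.9) and B-like cells (7.87) followed, with overlapping intervals in every pair but T/NK-like and B-like cells. Slc30a1 had another pattern. It was highest in endothelial-like cells at 50.2 CPM (48.8 to 51.6), then macrophage-like (45.3) and pericyte-like cells (40.3), with these 3 intervals apart. Of the 8584 macrophage-like cells 5893 came from library 4, and within libraries 1 to 3 pericyte-like cells (41.1, 33.5 and 45.9 CPM) lay above macrophage-like cells (17.2, 24.7 and 20.4 CPM). By contrast, fibroblast-like cells had 10.5 CPM (9.84 to 11.1) and granulocyte-like cells 3.39 CPM (2.45 to 4.56). With 10 CPM added to both levels, the highest class exceeded the median of the other classes 7.64-fold for Mt1, 9.79-fold for Mt2, 4.05-fold for Slc39a14 and 2.59-fold for Slc30a1. The highest class was another one in 4 of 68 alternatives. With 20 principal components Mt1 and Mt2 were highest in Schwann-like cells, and Slc30a1 was highest in Schwann-like cells where each cell was named by its own markers and in macrophage-like cells without library 3. Across the 8953 genes tested, 26.8% reached 4-fold in this measure, and the 4 genes were chosen from it.

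**Figure D1:**
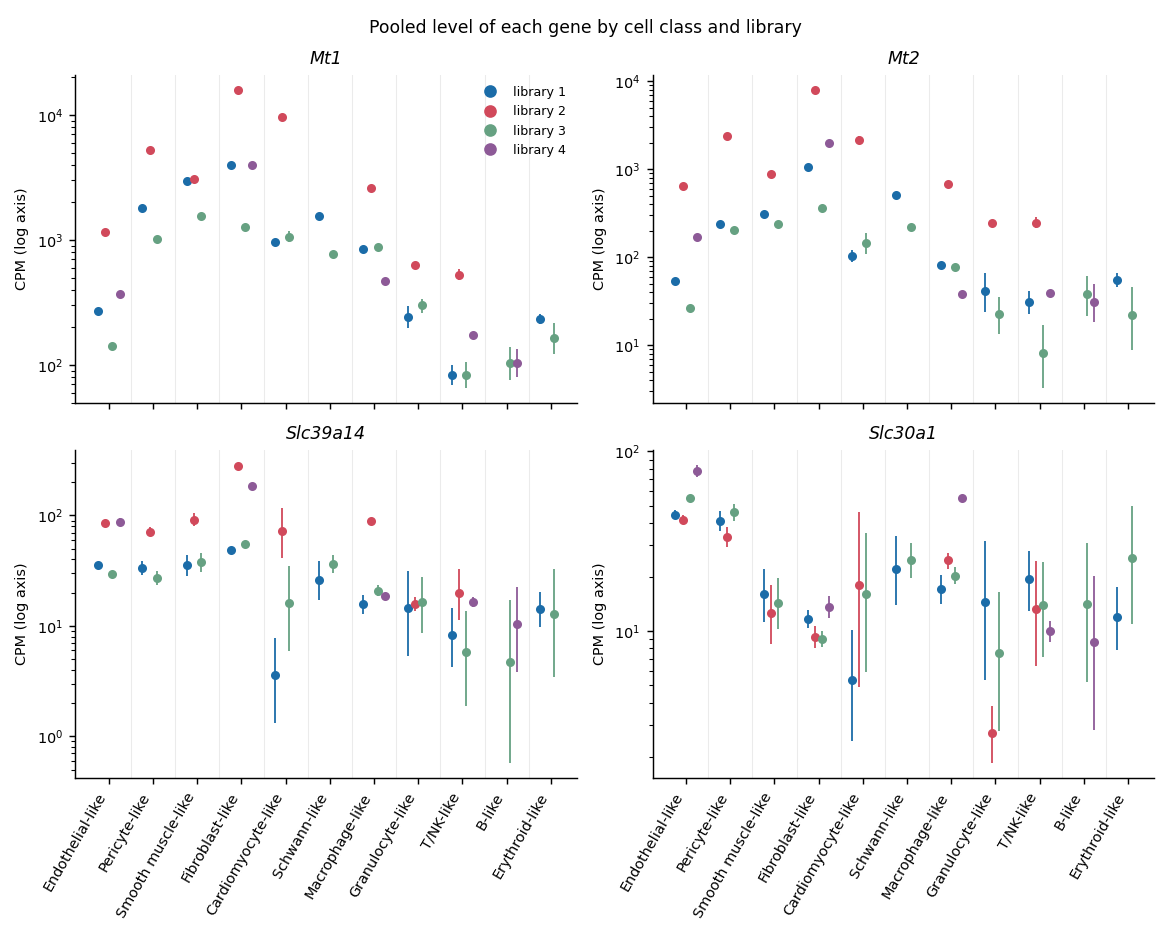
Pooled level of each gene in CPM (log axis) by cell class and library, for classes with at least 50 cells in the library; points are levels and bars are exact Poisson 95% intervals. Library 2 holds the highest Mt1 and Mt2 in each of the 8 classes it is plotted in, while Slc30a1 is highest in endothelial-like cells in every library.

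The highest class was mostly the same within single libraries, but the order below it was not. Fibroblast-like cells had the highest Mt2 and the highest Slc39a14 of all classes with at least 50 cells in each of the 4 libraries. They had the highest Mt1 in 3 of 4, the exception being library 3, with 1559 CPM in smooth muscle-like against 1280.1 CPM in fibroblast-like cells. The 31 Schwann-like cells of library 2, with 6311 UMIs of Mt1 and 2660 of Mt2, were too few to be ranked. The place of fibroblast-like cells in library 2 thus holds only among the classes ranked. Pericyte-like cells, second in the pooled order of Mt1, were second in none of libraries 1 to 3. Library 4 held 44 of them, with 2649 UMIs of Mt1, too few cells to be ranked. Endothelial-like cells had more Mt1 than granulocyte-like cells in library 2 (1156 against 632 CPM) and less in library 3 (141 against 299 CPM). Slc30a1 was highest in endothelial-like cells in all 4 libraries, although in library 1 the interval there (41.8 to 47.1 CPM) overlapped that of pericyte-like cells (35.9 to 46.9 CPM).

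Within classes the metallothioneins differed strongly between libraries, with library 2 highest. In fibroblast-like cells, Mt1 stood at 3952, 15969.7, 1280.1 and 3970.5 CPM in libraries 1 to 4. Library 2 lay far above the others, and libraries 1 and 4 could not be told apart by their intervals. Mt2 stood at 1051, 8040.4, 359 and 1992 CPM, with all 4 intervals apart. The highest over the lowest library was 12.4-fold for Mt1 and 21.8-fold for Mt2, in a class where 35.4% of genes reached 2-fold. The 813 fibroblast-like cells of library 2, 1.92% of all cells, held 39.3% of all Mt1 UMIs. Their median depth was 24958 UMIs, against 6444 over all cells, so that share reflects depth as well as level. Their per-cell Mt1 level had a median of 14846 CPM and a range of 3353 to 29770 CPM between the 10th and 90th percentile, so that the high level was spread over the cells. Nearly all of them, 97.4%, came from 1 cluster that the other libraries hardly shared. Of the 7 fibroblast markers, Col1a1 (326 CPM), Col3a1 (1117), Bgn (1414) and Lum (253) were lowest in library 2. Dcn, Gsn and Pdgfra were lowest in library 4, at 5225, 932 and 175 CPM, against 6802, 7005 and 298 CPM in library 2. The library and the fibroblast state cannot be told apart here.

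In endothelial-like cells, Mt1 stood at 273, 1156, 141 and 371 CPM in libraries 1 to 4. Mt2 stood at 53.3, 649, 26.4 and 170.1 CPM. Library 2 was highest and library 3 lowest in both, with no overlap of intervals. The highest over the lowest library was 7.74-fold for Mt1 and 18.1-fold for Mt2, where 20.4% of genes reached 2-fold; 1.37% of genes had a larger fold than Mt1 and 0.33% than Mt2. The libraries lay mostly in different clusters, with 86.0% of library 1, 98.8% of library 2, 77.3% of library 3 and 100% of library 4 each in a different cluster, so library and endothelial state cannot be told apart in these folds. Without library 2 these folds were 2.53 and 4.95, between libraries 4 and 3, and without library 3 they were 4.13 and 10.4. At least 1 UMI of Mt1 was found in 51.5%, 93.6%, 39.7% and 68.9% of endothelial-like cells in libraries 1 to 4. After each cell was thinned to 1000 UMIs the shares were 17.1%, 54.8%, 10.3% and 23.5%. The B-like cells, a class with low Mt1, had a UMI in 30.2% and 33.3% of cells in libraries 3 and 4. After thinning these shares were 10.4% and 13.3%, so the endothelial-like share of library 3 did not exceed the B-like share there. T/NK-like cells of library 3 had 6.67% after thinning. The part of background in these shares was not tested. Median depths were 3503 and 3990 UMIs in these B-like cells and 4625, 6067, 6353 and 9590 UMIs in endothelial-like cells of libraries 1 to 4. Within arterial endothelial-like cells, a subcluster that 3 libraries shared, Mt1 stood at 398, 2809 and 73.4 CPM in libraries 1 to 3, and Mt2 at 101, 1584 and 15.5 CPM, from 72, 72 and 214 cells. The order of libraries was the same inside this state as over all endothelial-like cells.

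In macrophage-like cells, Mt1 stood at 846, 2586, 883 and 471 CPM in libraries 1 to 4 and Mt2 at 81.9, 673, 76.7 and 38.3 CPM. Library 2 was again highest and library 4 lowest, 5.40-fold for Mt1 and 14.1-fold for Mt2, where 24.4% of genes reached 2-fold. Here too the states differed, with 85.2% of library 2 in a cluster led by Arg1, 89.1% of library 4 in one led by Ly6i, and 78.0% and 92.8% of libraries 1 and 3 in one led by Fcrls. In pericyte-like cells, which had enough cells in libraries 1 to 3, Mt1 stood at 1802, 5275 and 1021 CPM and Mt2 at 242, 2411 and 203 CPM. This was 5.13-fold and 11.4-fold, where 10.3% of genes reached 2-fold. Smooth muscle-like cells differed less in Mt1, with 2943, 3097 and 1559 CPM in libraries 1 to 3, 1.98-fold, against 3.63-fold for Mt2 (306, 892 and 238 CPM) and a background of 10.9%. The intervals of libraries 1 and 2 for Mt1 in smooth muscle-like cells did not overlap but were close, at 2874 to 3014 and 3025 to 3170 CPM.

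Cardiomyocyte-like cells were shallow, with a median of 834 UMIs in library 2 and 1363 and 1526.5 in libraries 1 and 3. Their Mt1 stood at 961, 9634 and 1065 CPM in libraries 1 to 3 and their Mt2 at 104, 2158 and 145 CPM, in a class where 36.4% of genes reached 2-fold between libraries. S100a8 and S100a9 summed to 7097 CPM in the library 2 cells of this class, against 63.0 and 67.2 CPM in libraries 1 and 3. Granulocyte-like cells had 244, 632 and 299 CPM of Mt1 in libraries 1 to 3 and 41.1, 243 and 22.6 CPM of Mt2, with a background of 25.6% between libraries 2 and 3. Of the 253 cells of library 3, 248 lay in a subcluster led by the fibroblast transcripts Col1a1, Col1a2 and Col3a1. The same subcluster held 83 of the 97 cells of library 1. The part of RNA from other cells in these levels was not tested. In T/NK-like cells Mt1 stood at 83.0, 528, 83.7 and 173 CPM in libraries 1 to 4, where 32.9% of genes reached 2-fold. The remaining classes could be compared only between libraries without library 2. Mt1 in Schwann-like cells was 1.99-fold higher in library 1 than in library 3 (background 5.82%), in erythroid-like cells 1.38-fold higher in library 1 than in library 3 (background 6.95%), and in B-like cells not distinguishable between libraries 3 and 4, at 104 CPM in both (background 9.93%). Over the 8 classes that had at least 50 cells in library 2 and in another library, library 2 was highest in 8 for both metallothioneins, in 6 for Slc39a14 and in 1 for Slc30a1.

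The part of free RNA in these levels was not tested, but values that bear on it were taken. The 2982 unnamed cells of library 2, with a median of 1123 UMIs, had 4243 CPM of Mt1 and 2130 CPM of Mt2. Their depths were unlike. Most (2125) fell in a shallow cluster, whose median was 854 UMIs and whose Mt1 level was 4536 CPM. Another 829 formed a deeper cluster found in library 2 alone, with a median of 4585 UMIs and 4178 CPM of Mt1. This deeper cluster supplied 14909 of the 33112 Mt1 UMIs of the unnamed cells. Not all of this Mt1 thus came from shallow cells. The pooled Mt1 level lay above those of endothelial-like, macrophage-like, smooth muscle-like, granulocyte-like and T/NK-like cells of the library. It lay below those of fibroblast-like, pericyte-like and cardiomyocyte-like cells. In library 2, Mt1 UMIs per UMI of S100a8 and S100a9 were 0.235 over all cells, 0.255 in T/NK-like, 0.523 in macrophage-like, 0.955 in endothelial-like, 6.00 in pericyte-like and 26.8 in fibroblast-like cells. By this ratio T/NK-like cells lay close to the whole library, and 156 of these 163 cells lay in a subcluster led by Fabp4, S100a8, Cd36 and Gpihbp1, which are transcripts of other cell types. Measured against Dcn, a fibroblast transcript, Mt1 per Dcn UMI was 2.35 in fibroblast-like cells of library 2 and 24.4 in endothelial-like, 82.7 in macrophage-like, 104.6 in pericyte-like and 8.80 in T/NK-like cells. In each of those 4 classes the ratio lay above that of fibroblast-like cells and above the 3.28 of all cells of the library.

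The proportion of Mt2 among the UMIs of both metallothioneins was highest in library 2 in each of the 8 classes measured there, with overlapping intervals in fibroblast-like cells (library 4) and T/NK-like cells (library 1). In endothelial-like cells, Mt2 made up 16.4% (15.6 to 17.2), 36.0% (35.6 to 36.4), 15.8% (14.9 to 16.7) and 31.5% (30.1 to 32.8) of these UMIs in libraries 1 to 4, with exact binomial intervals. In fibroblast-like cells it made up 21.0%, 33.5%, 21.9% and 33.4%. Libraries 2 and 4 lay above libraries 1 and 3 in both classes, although fibroblast-like cells of libraries 1 and 4 had nearly the same Mt1 level. In macrophage-like cells the share was 8.83%, 20.7%, 7.99% and 7.52%, so library 4 stayed with libraries 1 and 3 there. Pericyte-like cells had 11.8%, 31.4% and 16.6% in libraries 1 to 3. Classes also differed within a library: in library 1, smooth muscle-like cells had 9.42% and Schwann-like cells 24.6%.

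**Figure D2:**
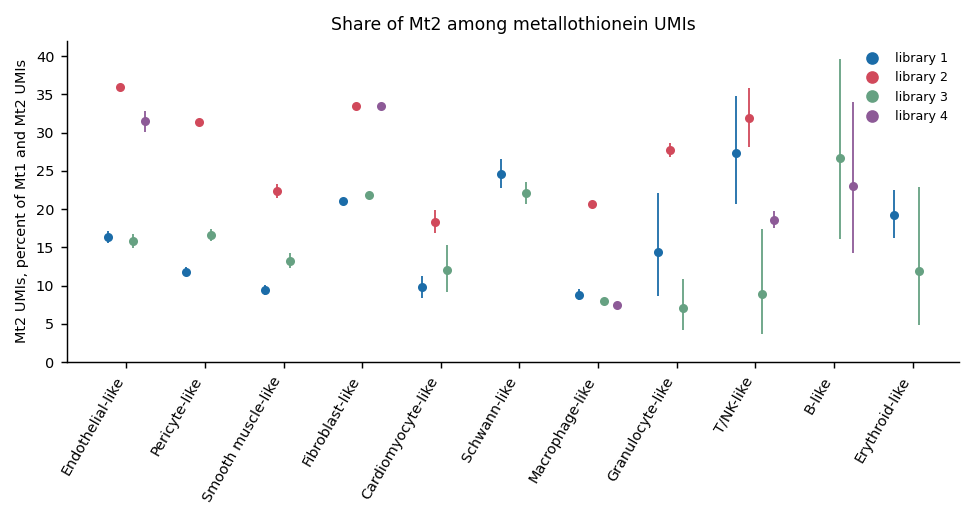
Mt2 UMIs as a percent of Mt1 and Mt2 UMIs by cell class and library; bars are exact binomial 95% intervals that cover counting error only. Endothelial-like and fibroblast-like cells of libraries 2 and 4 lie above 30%, and macrophage-like cells reach 20.7% in library 2 alone.

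Slc39a14 moved with the metallothioneins in part. In fibroblast-like cells it stood at 49.0, 280 and 55.7 CPM in libraries 1 to 3 and at 184 CPM in library 4, 4.92-fold between the highest and lowest library. Libraries 2 and 4 were both high. In endothelial-like cells it stood at 35.4, 85.7, 29.6 and 87.4 CPM in libraries 1 to 4, with overlapping intervals in libraries 2 and 4, and a fold of 2.46. In macrophage-like cells library 2 alone was high, with 15.6, 88.9, 20.9 and 18.8 CPM. Pericyte-like cells had 33.4, 71.6 and 27.3 CPM and smooth muscle-like cells 35.5, 91.6 and 38.0 CPM in libraries 1 to 3. In granulocyte-like cells libraries 2 and 3 did not differ beyond counting error, at 15.8 and 16.3 CPM.

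Slc30a1 did not share the library 2 pattern. In endothelial-like cells it stood at 44.4, 41.8, 55.1 and 78.1 CPM in libraries 1 to 4, so library 4 was highest and libraries 1 and 2 overlapped, with a fold of 1.70. In macrophage-like cells it stood at 17.2, 24.7, 20.4 and 55.2 CPM. Library 4 lay above the other 3, by 2.40-fold over the lowest; its macrophage-like cells fell in 2 clusters that the other libraries hardly shared, so library and macrophage state cannot be told apart. In fibroblast-like cells Slc30a1 stayed between 9.02 and 13.6 CPM in all libraries, 1.24-fold, beside the 12.4-fold difference of Mt1 in the same cells. The 10 CPM added to both levels is about as large as these Slc30a1 levels. It lowers their fold and hardly changes that of Mt1. The Slc30a1 intervals of library 3 (8.10 to 10.0 CPM) and library 4 (11.8 to 15.6 CPM) were apart. Pericyte-like cells had 41.1, 33.5 and 45.9 CPM in libraries 1 to 3, with library 2 lowest.

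Over the 34 units of a named class and a library with at least 50 cells, Pearson's r of log2(CPM + 10) was 0.93 between Mt1 and Mt2, 0.76 between Mt1 and Slc39a14, 0.84 between Mt2 and Slc39a14 and -0.06 between Mt1 and Slc30a1. After the mean of each class was subtracted the values were 0.96, 0.80, 0.84 and -0.20. The units share libraries and cell types, so these values describe them and carry no p-value. Of 9021 genes, the 5 most like Mt1 included Mt2, the neutrophil chemokine Cxcl1 (r = 0.83), Ift57 (0.80) and Uap1 (0.79). The 5 most like Mt2 included Mt1, the chemokine Cxcl5 (0.88), the sphingosine kinase Sphk1 (0.85) and Slc39a14 (0.84). The 5 most like Slc39a14 included Sphk1 (0.91), Ipo4 (0.87), Mt2 (0.84) and Tubb6 (0.83). Slc30a1 was most like Tlnrd1 (0.87), the transporter Abcc4 (0.86), the channel subunit Lrrc8c (0.85) and the scavenger receptors Scarf1 (0.85) and Scarb1 (0.82), with r of 0.56, 0.60, 0.64, 0.61 and 0.48 in this order after class means were subtracted.

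**Figure D3:**
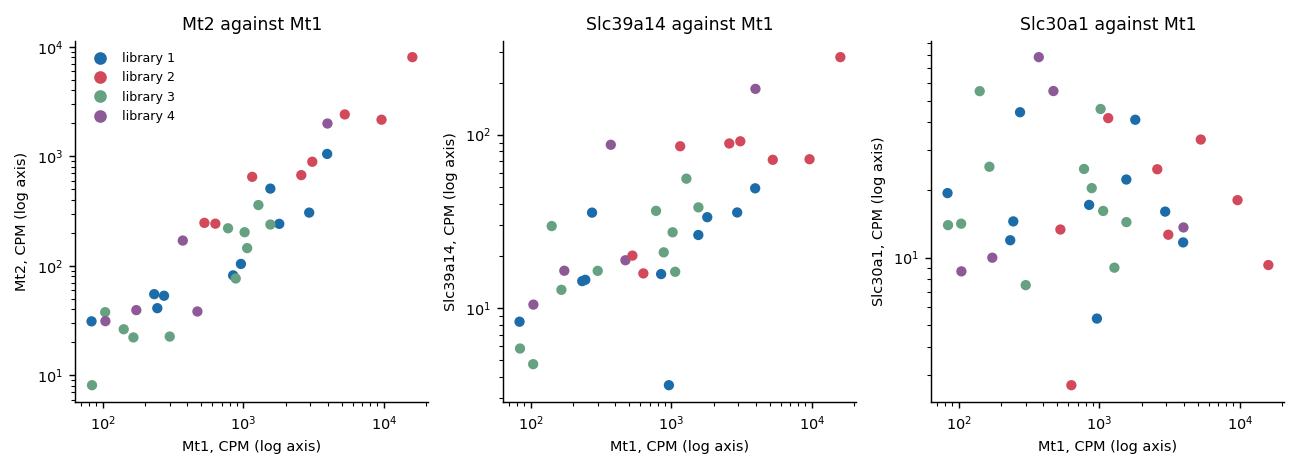
Level of Mt2, Slc39a14 and Slc30a1 against that of Mt1, in CPM on log axes; each point is a named class in a library with at least 50 cells. Mt2 and Slc39a14 rise with Mt1 across the points, and Slc30a1 does not.

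Within single cells Mt1 and Mt2 were detected together to a degree that differed between classes. After thinning to 1000 UMIs, Spearman's rho between Mt1 and Mt2 over cells of 1 class and library was 0.50, 0.64, 0.38 and 0.49 in fibroblast-like cells of libraries 1 to 4, and 0.71 in pericyte-like cells of library 2. It was 0.08, 0.32, 0.13 and 0.32 in endothelial-like cells and 0.20, 0.42, 0.13 and 0.07 in macrophage-like cells. Between Mt1 and either transporter it stayed between -0.13 and 0.10 in every class and library with at least 200 thinned cells. In sparse counts such weak values are no finding. Endothelial-like cells of library 2 with a metallothionein UMI had 108 CPM of Slc39a14 (95.6 to 122) against 81.4 CPM (65.9 to 99.3) in those without, with overlapping intervals. Libraries 1 and 4 had lower values with than without such a UMI (25.2 against 32.6 and 72.6 against 127 CPM), also with overlapping intervals. For Slc30a1, endothelial-like cells of library 3 had 29.4 CPM (16.1 to 49.3) with such a UMI and 57.5 CPM (49.6 to 66.3) without. These intervals were barely apart, and the first level rested on 14 UMIs. As 1 of many such comparisons, it is not read as a finding. Slc30a1 values with such a UMI were higher in libraries 1 and 4 and lower in library 2, with overlapping intervals.

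Levels also differed between subclusters of a class, most of which came largely from 1 library. Among fibroblast-like cells, the 773 Prg4 Ptx3 stromal-like cells, all from library 2, had 16256 CPM of Mt1, 8210.5 CPM of Mt2 and 284 CPM of Slc39a14. Next came 998 cells led by Gsta3 and Inmt, 940 of them from library 1, with 6061 CPM of Mt1 and 1522 CPM of Mt2 but 43.2 CPM of Slc39a14. A subcluster of 313 cells led by Hp and Gbp2b, 310 from library 4, had 4438 CPM of Mt1, 2212 CPM of Mt2 and 198 CPM of Slc39a14. Both subclusters of activated fibroblast-like cells were lower, with 1962 and 656 CPM of Mt1. A second subcluster led by Gsta3 and Inmt, 450 of its 517 cells from library 1, had 1334 CPM of Mt1, so cells of library 1 spanned a wide range.

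Among macrophage-like cells, resident macrophage-like cells were highest, with 5427 CPM of Mt1 and 2225 CPM of Mt2 in 261 cells. Of these, 254 came from library 2, and Mt2 itself was among their 4 leading genes. Arg1 macrophage-like cells, 726 of 744 from library 2, had 2014 CPM of Mt1 and 355 CPM of Mt2. Cx3cr1 macrophage-like cells, mostly from libraries 1 and 3, had 911 and 82.4 CPM. Inflammatory macrophage-like cells, all 800 from library 4, had 175 CPM of Mt1 and 7.2 CPM of Slc39a14. That Mt1 level was the lowest of the macrophage-like subclusters with at least 100 cells. The name does not cover all cells with these markers. A subcluster of 2276 cells of library 4, led by Ly6c2 and Nos2, also had 4 of 5 inflammatory markers but stayed unnamed. Macrophage-like cells of library 4 together had 471 CPM of Mt1. The 2 large subclusters of library 4 led by Ly6c2 and Nos2 or by Gm15056 had 55.2 and 62.5 CPM of Slc30a1, against 19.3 CPM in Cx3cr1 macrophage-like cells. Among endothelial-like cells, Cxcl9-rich cells, 616 of 618 from library 4, had 80.7 CPM of Slc30a1 and 377 CPM of Mt1. Cycling endothelial-like cells, 191 of 196 from library 3, had 54.1 CPM of Mt1, the lowest of the endothelial-like subclusters.

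**Figure D4:**
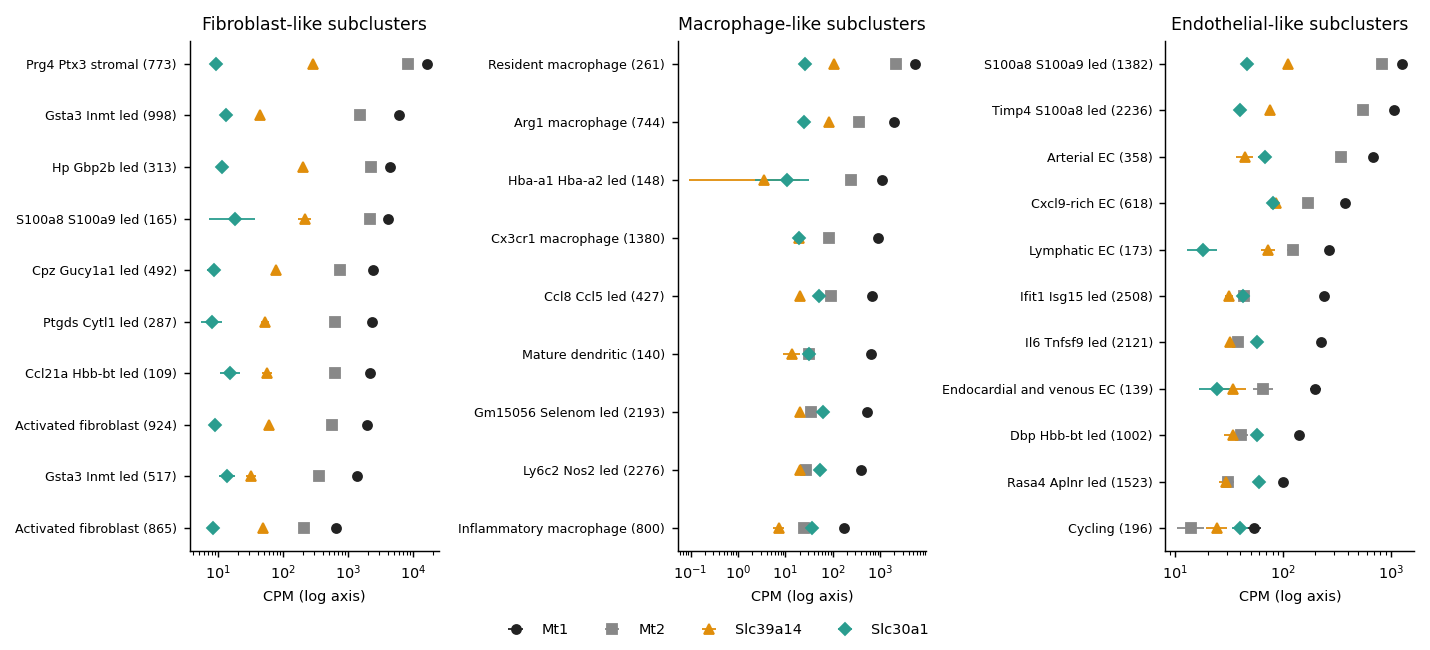
Pooled level in CPM (log axis) of the 4 genes in the subclusters of fibroblast-like, macrophage-like and endothelial-like cells with at least 100 cells, ordered by Mt1; the number of cells is in brackets and bars are exact Poisson 95% intervals. The metallothioneins fall from top to bottom over more than 10-fold in each class, and Slc30a1 stays within a narrow range among fibroblast-like subclusters.

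The wider zinc list held 29 genes, the metallothioneins, Mtf1 and the SLC30 exporters and SLC39 importers, and all were in the matrix. Of these, 19 reached 10 CPM in some class, and 10 did not. Mtf1 ranged from 11.2 CPM in erythroid-like to 50.7 CPM in pericyte-like cells. In endothelial-like cells Mtf1 stood at 29.4, 43.7, 32.5 and 45.8 CPM in libraries 1 to 4, and in fibroblast-like cells at 15.6, 20.8, 14.2 and 16.3 CPM. Between libraries Mtf1 differed by less than 2-fold in these classes, where Mt1 differed 7.74-fold and 12.4-fold. The activity of MTF-1 was not measured, and its part in the Mt1 levels was not tested. Slc39a1, the plasma membrane importer ZIP1, stood at 24.0 to 129 CPM across classes and Slc39a7, the importer ZIP7 of the endoplasmic reticulum, at 23.5 to 121 CPM. Slc30a5, Slc30a6, Slc30a7 and Slc30a9, which take part in moving zinc across organelle membranes, reached 52.9, 13.9, 29.4 and 59.1 CPM in their highest class. Slc39a3, Slc39a6, Slc39a9, Slc39a11 and Slc39a13 reached 24.5, 40.0, 22.3, 10.1 and 49.2 CPM.

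The other zinc genes were counted by the same fold between libraries. In endothelial-like cells 1 of 12 tested did, Slc30a4, which encodes the vesicular exporter ZnT4 and stood at 33.1, 48.5, 41.7 and 114 CPM in libraries 1 to 4. In fibroblast-like cells 1 of 13 did, the importer Slc39a10, at 25.5, 56.9, 23.9 and 22.1 CPM. In cardiomyocyte-like cells 3 of 9 did (Slc39a1, Slc39a6 and Slc39a9), and in granulocyte-like cells 1 of 6 (Slc39a7). In macrophage-like cells 0 of 12 did, and Schwann-like, T/NK-like, B-like and erythroid-like cells had 0 of 14, 9, 7 and 8. In pericyte-like and smooth muscle-like cells 1 of 13 did, which was Mt3 in both. The shares of all genes in those classes are given above, and the counts are too small to be read against them.

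Mt3, a metallothionein best known from the brain, was found in a minority of cells. In pericyte-like cells it stood at 0.55, 87.5 and 12.5 CPM in libraries 1 to 3, from 3, 647 and 89 UMIs. Library 2 was highest, as for Mt1 and Mt2, and 18.4% (15.5 to 21.6) of its pericyte-like cells had a UMI. In fibroblast-like cells it stood at 0.18, 17.5, 0.49 and 8.72 CPM in libraries 1 to 4. In smooth muscle-like cells library 3 was highest, at 27.3 CPM against 6.50 and 6.10 CPM in libraries 1 and 2. That level came from 74 UMIs, 25 of them in 1 cell. Single pericyte-like cells held up to 29 UMIs in library 2 and 21 in library 3. A single fibroblast-like cell of library 2 held 49 of 365 UMIs. T/NK-like cells of library 4 had 23.2 CPM, from 524 UMIs in 117 of 1411 cells with up to 73 in 1 cell, against 0, 2 and 3 UMIs in the T/NK-like cells of libraries 1 to 3.

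**Figure D5:**
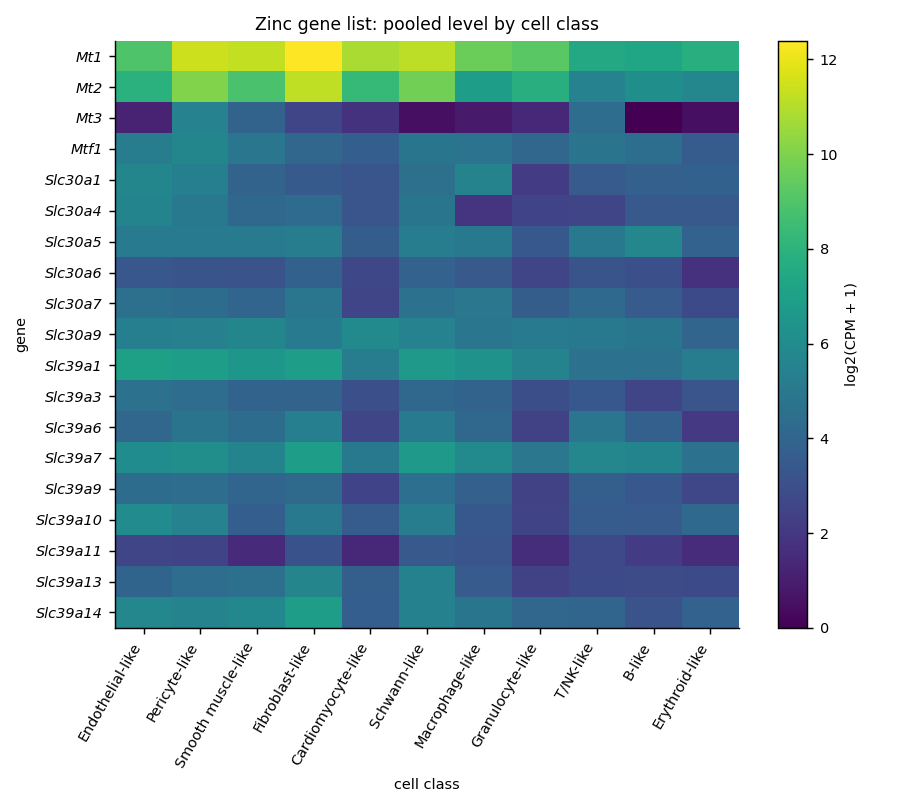
Pooled level as log2(CPM + 1) of the 19 genes of the zinc list with at least 10 CPM in some class, by class over all libraries. Mt1 and Mt2 are brightest in fibroblast-like cells, and Slc30a1 is brightest in endothelial-like, macrophage-like and pericyte-like cells.

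Sums of response genes were taken beside the metallothioneins. In endothelial-like cells the heat shock sum stood at 4232, 7462, 5656 and 3520 CPM in libraries 1 to 4, highest in library 2. The Nrf2 sum stood at 259, 446, 354 and 336 CPM. The interleukin 6 and STAT3 sum (2496, 2209, 2353 and 1988 CPM) was highest in library 1 and the hypoxia sum (442, 436, 435 and 538 CPM) in library 4. The glucocorticoid response sum stood at 2115, 2246, 1141 and 850 CPM, high in libraries 1 and 2. The interferon sum stood at 3037, 370, 1385 and 15634 CPM, lowest in library 2 and highest in library 4. The immediate early sum was highest in library 1, at 22519 CPM. Over the 34 units, after class means were subtracted, r with Mt1 was 0.69 for the Nrf2 sum, 0.61 for the interleukin 6 and STAT3 sum, 0.56 for the glucocorticoid sum, 0.43 for the hypoxia sum, 0.39 for the heat shock sum, -0.08 for the immediate early sum and -0.44 for the interferon sum. The interleukin 6 and STAT3 list holds Lcn2, its leading gene over all cells of library 2 (1721 CPM). Lcn2 also led it in endothelial-like (450 CPM) and granulocyte-like cells (9321 CPM) of that library. For Slc30a1 the highest value was that of the interferon sum, 0.45. The units come from 4 libraries, and no part of these lists in the metallothionein levels was tested.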

How the data were processed

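Cells of 4 heart grafts were profiled with the 10x 3' kit. The authors made the UMI counts with Cell Ranger (version 3.0.0 per the file headers) on mm10, and deposited them as 1 merged matrix of raw counts per gene and cell. The submitters' processing notes also list CASAVA 1.8 and Seurat. No per-sample column was left unused.

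Filtering required more than 200 genes per cell and less than 20% of UMIs from mitochondrial genes, which left 44626 cells. The 5% of cells per library with the highest doublet score were left out. Log-normalised values of 2000 variable genes, without the zinc genes, gave 10 principal components, a graph of 30 neighbours and Leiden clusters at resolution 0.8 (0.5 within a class), with Python 3.11.15, scikit-learn 1.9.0, igraph 0.11.9 and leidenalg 0.10.2. A cluster was named where at least 3 markers of a class were 2-fold above the other clusters and found in 10% of its cells. It stayed unnamed where its 10 leading genes held more markers of a different class, or where its depth was under 1/3 of its libraries' median with none of its class's markers among them. The depth rule left unnamed a cluster of 770 cells with 5 of 6 granulocyte markers, 766 from library 4. It also left unnamed a cluster of 147 cells with 5 of 7 cardiomyocyte markers, 146 from library 4. A subcluster led by genes of another class also stayed unnamed. A fold adds 10 CPM to both levels, and the share of all genes that reached a fold used genes with a mean of at least 10 CPM and libraries with at least 100 cells of the class. Intervals are 95% Poisson or Clopper-Pearson intervals, cover counting error only, and replicate grafts could not be told apart. No test was made, since nothing pairs a library with a graft. The genes named were the 4 genes, zinc genes with at least 10 CPM in some class, the 5 genes most like each of the 4, and class markers, of which some are not reported here. Leading genes name subclusters. Mt1 and the other genes and all lists were chosen with earlier results of these data known. The scripts were tested on simulated data.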

Additional observations from a re-analysis of the deposited data

How the results depend on the processing

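For Mt1, Mt2, Slc39a14 and Slc30a1 in this order, the highest class over the median of the others (class fold) was 7.64, 9.79, 4.05 and 2.59 and the highest over the lowest library in endothelial-like cells (library fold) was 7.74, 18.1, 2.46 and 1.7. With doublets kept, the class fold was 6.74, 11.4, 3.35 and 2.06 and the library fold 7.73, 18.2, 2.44 and 1.72. With cells with over 500 detected genes, the class fold was 6.89, 10.8, 4.64 and 2.48 and the library fold 10.9, 23.6, 2.53 and 1.32. With cells with at least 1000 UMIs, the class fold was 9.1, 14.1, 4.64 and 2.81 and the library fold 10, 22.7, 2.57 and 1.7. With a clustering resolution of 0.4, the class fold was 7.46, 12.6, 4.83 and 2.66 and the library fold 11.7, 26.1, 2.66 and 1.32. With a clustering resolution of 1.6, the class fold was 9.18, 13.1, 4.34 and 2.73 and the library fold 8.66, 20.3, 2.45 and 1.75. With 20 principal components, the class fold was 6.96, 7.74, 3.42 and 2.57 and the library fold 6.52, 14.9, 2.57 and 1.71. With all variable genes used, the class fold was 9.54, 14.8, 3.86 and 2.4 and the library fold 7.56, 18, 2.42 and 1.7. With each cell named by its own marker UMIs, the class fold was 6.64, 7.07, 2.54 and 1.64 and the library fold 8.85, 21.4, 2.61 and 1.7. With mitochondrial UMIs in the denominator, the class fold was 7.56, 9.76, 3.97 and 2.58 and the library fold 7.9, 18.2, 2.47 and 1.68. With the mean of the per-cell levels, the class fold was 5.88, 6.62, 2.81 and 2.57 and the library fold 7.36, 15.7, 2.68 and 1.73. With 1 CPM added, the class fold was 7.73, 10.1, 5.26 and 3.6 and the library fold 8.17, 23.8, 2.89 and 1.85. With cells thinned to 1000 UMIs, the class fold was 6.39, 7.46, 2.85 and 2.67 and the library fold 7.62, 15.7, 3.16 and 1.64. With libraries weighing the same, the class fold was 7.54, 12.4, 3.72 and 2.67. Leaving out 1 library at a time, the class fold was 5.15 to 10.4 for Mt1, 8.37 to 14.6 for Mt2, 2.95 to 5.17 for Slc39a14, 2.3 to 2.89 for Slc30a1, and the library fold 2.53 to 7.74 for Mt1, 4.95 to 18.1 for Mt2, 2.14 to 2.46 for Slc39a14, 1.26 to 1.7 for Slc30a1. Of 132 alternative values 50 moved by less than their interval and 82 moved. Of the 68 class folds, 0 fell below 1. The library fold takes the highest over the lowest library of each run, so it could not change direction. The highest class changed in 4 of 68, and these are named with the class levels above. The highest or lowest library changed in 15 of 64. Those 15 include the runs that left out the highest or the lowest library, where a change was fixed in advance. The cause of the other changes was not tested. No paired analysis was possible because nothing pairs a library with a graft.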
